A study of Mus musculus with 45 samples.

Results

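The CT26 colon carcinoma line of the mouse was studied with 2 short hairpin RNAs against Soat1, called sh1 and sh2, and compared with the control hairpin shLucif, which is directed against luciferase. The comparison takes 9 of the 45 samples of the series, 3 libraries for each of the 3 hairpins, chosen by the column names of the deposited expression table. The labels give the genotype as a luciferase knockdown or a SOAT1 knockdown, with no drug treatment, and cells were taken 24 hours after seeding. CT26 is an established tumour line from the BALB/c strain, so every group, controls included, is a cultured cancer line that carries a hairpin. The labels do not say whether a knockdown line is 1 clone or a pool, how the hairpin was introduced, or whether the 3 libraries of a group come from separate cultures. P-values therefore measure the spread between these libraries, which may be technical. Another hairpin, sh3, with 3 further CT26 libraries of the same batch date, is used only to ask where sh1 and sh2 differ from another hairpin against the same gene. The sequences of the hairpins were not used here.

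SOAT1, sterol O-acyltransferase 1, is an enzyme of the endoplasmic reticulum that joins a fatty acid to cholesterol, and the esters are stored in lipid droplets. Free cholesterol that is not esterified or exported holds back SREBP2, the factor that switches on cholesterol synthesis and uptake, and its oxysterol derivatives activate the LXR receptors, which switch on cholesterol export. The title of the study places SOAT1 in cancer stem cells and links it to regulatory T cells through an oxysterol and the receptor GPR132. Type I interferons signal through a transcription factor complex that contains STAT2 and IRF9 to a large set of interferon-stimulated genes, which include antiviral effectors, RNA sensors and genes of antigen presentation.

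Expression was measured by RNA sequencing as FPKM, fragments scaled to transcript length and to the number of mapped fragments. Of the 55335 genes in the table, 11832 reached 1 FPKM in at least 3 of the 12 CT26 libraries and were tested with limma on log2(FPKM + 1). Summed FPKM of the 9 libraries ran from 322287 to 334643 and the number of genes at 1 FPKM or more from 11159 to 11255. Read totals are unknown, and the steps of the lowest FPKM values put the relative depth of the 9 libraries between 0.933 and 1.15. A difference is given as log2 fold change of FPKM + 1, with its standard error (SE). A gene is called where its p, adjusted by the method of Benjamini and Hochberg, is under 0.05. The pseudocount of 1 makes the fold change of genes with few FPKM too small. In bulk RNA, fewer cells with a transcript and less transcript per cell cannot be told apart.

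The libraries of sh1 and sh2 were as like each other as the libraries of 1 hairpin, which bears on every result that follows. Pearson's r of log2(FPKM + 1) across genes was 0.989 to 0.990 for the 9 pairs of 1 sh1 and 1 sh2 library. Within sh1 it was 0.989 to 0.990, within sh2 0.990 to 0.992 and within shLucif 0.990 to 0.992. Libraries of either hairpin correlated with shLucif at 0.973 to 0.976 and with sh3 at 0.951 to 0.963. Between sh1 and sh2 the test called 2 of 11832 genes (0.0169%), with 983 genes at an unadjusted p under 0.05. It called 32 genes without the sh1 library whose column ends in 3, and between 0 and 4 without any other single library of the 9. In simulated data this comparison found 22.4% of 1.2-fold, 61.2% of 1.5-fold and 83.3% of 2-fold changes, 200 changed genes among 11832. The real comparison called 2 genes, and with so few calls the adjustment of p is stricter, so these rates may be too high for it. Whether sh1 and sh2 are separately derived lines was not tested, so their likeness is not independent evidence for an effect of Soat1. The mean of sh1 and sh2 against shLucif is the main comparison, and each hairpin alone is given beside it.

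**Figure D1:**
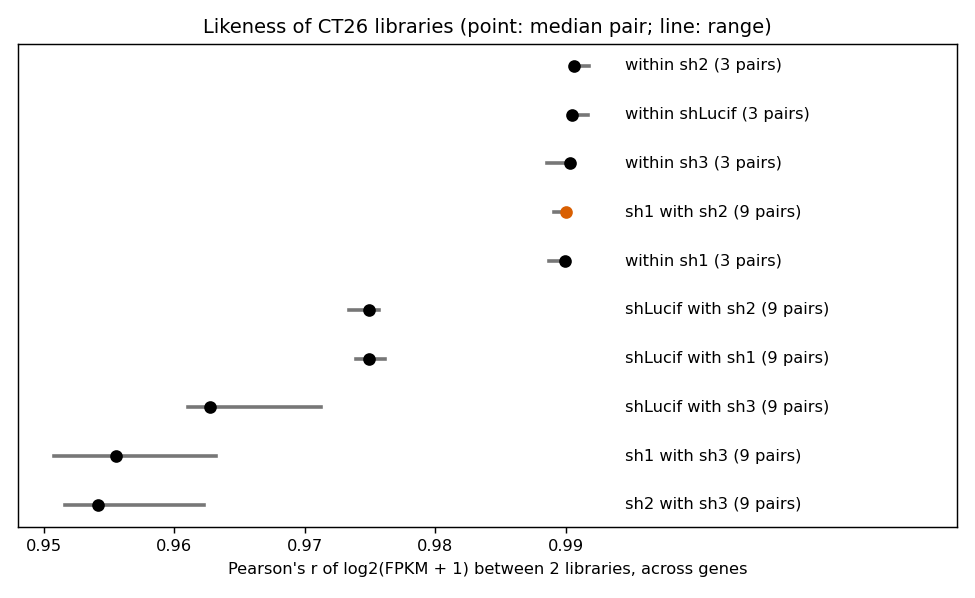
Pearson's r of log2(FPKM + 1) across genes between pairs of CT26 libraries, on the x axis, with 1 row per pair of groups; points are the median pair and lines the range, and the label gives the number of pairs. Pairs of sh1 with sh2 (orange) lie at 0.989 to 0.990, where pairs within a hairpin lie, and pairs with shLucif at 0.973 to 0.976.

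Soat1 itself (ENSMUSG00000026600, chromosome 1, 156424525 to 156474331, minus strand, GRCm38) was at 19.7, 19.8 and 20.2 FPKM in the shLucif libraries. It was at 3.29, 3.23 and 3.28 FPKM with sh1 and at 3.44, 3.55 and 3.41 with sh2. The groups did not overlap, and the means were 16.4% and 17.4% of the control. The log2 fold change was -2.26, with an SE of 0.0358 and an adjusted p of 3.29e-11 from limma. The residual level differed between sh1 and sh2 by -0.07 (SE 0.0413, adjusted p = 0.694). With sh3 it was 2.59 ± 0.104 FPKM (SD, n = 3), lower than with the other hairpins (difference of the mean of sh1 and sh2 from sh3 0.28, adjusted p = 4.12e-05). All 3 hairpins thus left 13.0% to 17.4% of the Soat1 signal.

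Soat2, which encodes the second cholesterol-esterifying enzyme, was present at 58.7, 61.9 and 59.2 FPKM with shLucif, 59.0, 54.9 and 49.4 with sh1 and 48.0, 52.1 and 48.9 with sh2. It was called lower (-0.20, SE 0.0644, adjusted p = 0.0251), but the sh1 libraries overlapped the control. The call was lost without any 1 of the shLucif libraries (adjusted p 0.0512 to 0.0942).

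**Figure D2:**
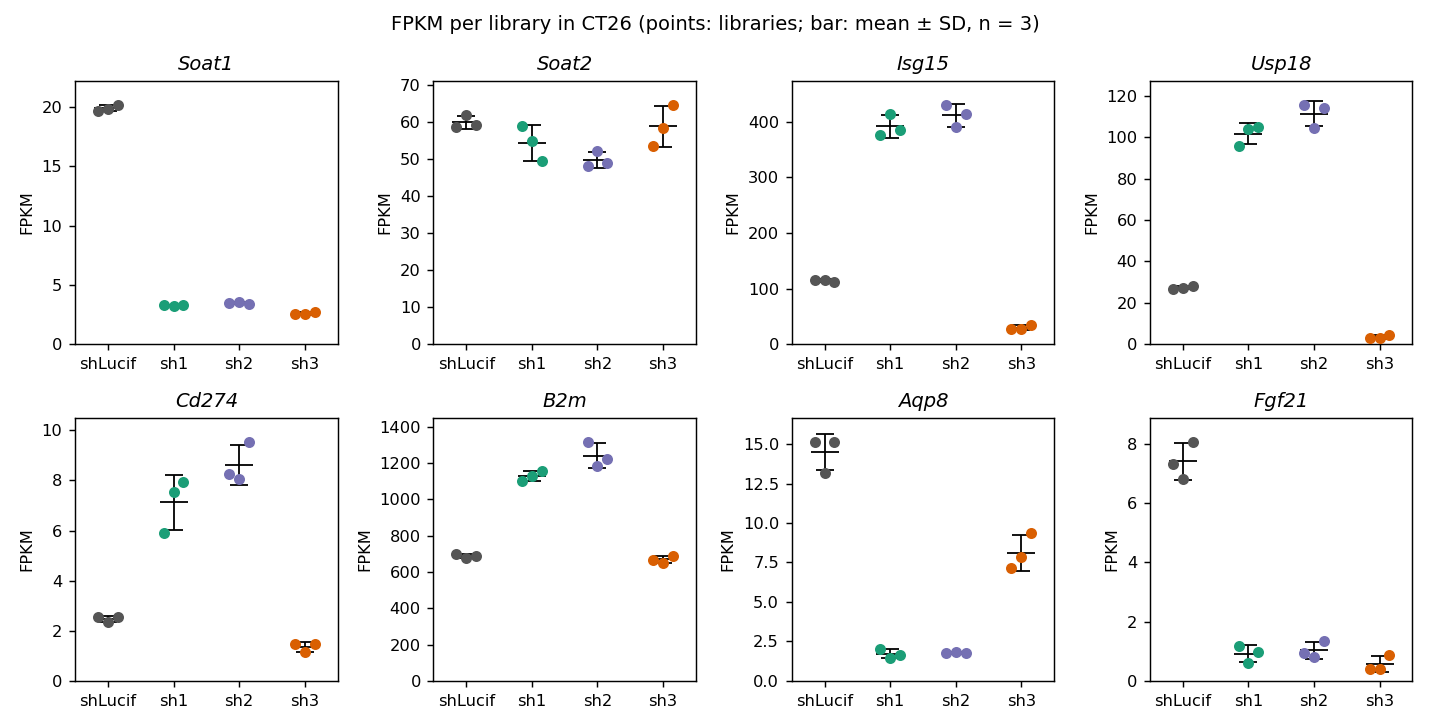
FPKM (y axis, linear, from 0) of 8 genes in each CT26 library by hairpin; points are libraries and bars the mean ± SD of 3. Soat1 fell with all 3 hairpins, while Isg15, Usp18, Cd274 and B2m were higher in all 6 sh1 and sh2 libraries than in shLucif, and Isg15, Usp18 and Cd274 were lower in the sh3 libraries than in shLucif.

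A large share of the transcriptome differed by a small amount. Against shLucif, the mean of sh1 and sh2 called 5165 genes, 43.7% of those tested, with 2538 higher (21.5%) and 2627 lower (22.2%). At least 2-fold changes were rarer, with 132 genes higher and 48 lower. The median log2 fold change over all genes was -0.01. With sh1 alone 19.1% of genes were called higher and 18.7% lower, and with sh2 alone 18.9% and 20%. All 6 hairpin libraries lay above all 3 shLucif libraries for 19.9% of the genes and below them for 20.7%. These shares are the background for the gene lists that follow, and a list whose share of calls lies near them shows nothing about the list as such. A gene that reached 1 FPKM only where it is high had to differ. Fgf21, Cd53, Aldh1a1 and Ccl20 reached 1 FPKM in at most 1 library of sh1 and 1 of sh2, so their calls are a description. The gene lists and the rule for named genes were chosen with earlier results of these data known.

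**Figure D3:**
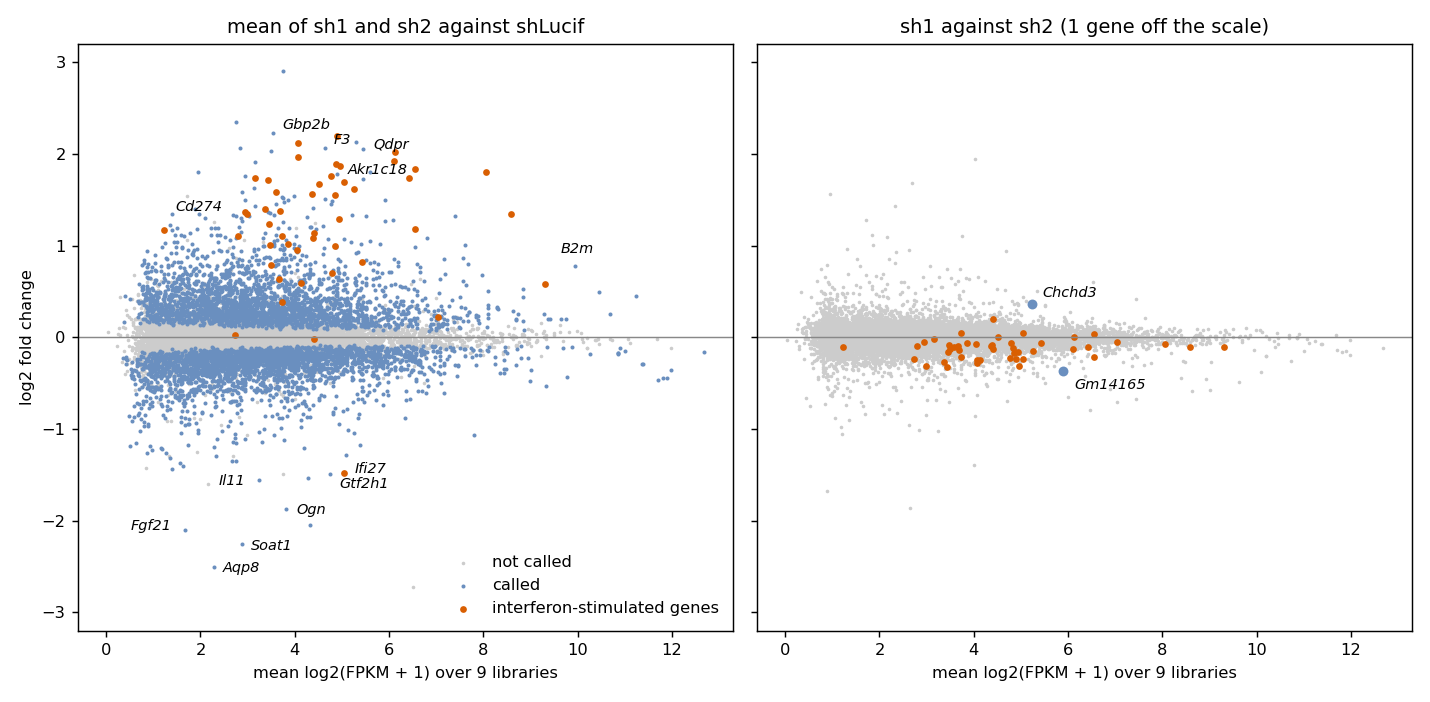
Log2 fold change (y axis) against the mean log2(FPKM + 1) of the 9 libraries (x axis) for each tested gene; left, mean of sh1 and sh2 against shLucif; right, sh1 against sh2. Blue points are called (5165 on the left, 2 on the right), orange points the 47 interferon-stimulated genes, of which 44 rose on the left and 0 were called on the right.

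Interferon-stimulated genes rose together. Of 47 listed genes, all measured, 44 were called higher and 1 lower with the mean of sh1 and sh2, against 21.5% and 22.2% of all genes. Their median log2 fold change was 1.34 (all genes -0.01), and 34 rose at least 2-fold. With sh1 alone 42 were called higher and with sh2 alone 44. The 6 hairpin libraries lay above the 3 control libraries for 44 of the 47 genes, against 19.9% of all genes. Their summed level was 1492 to 1537 FPKM in shLucif libraries, 3117 to 3289 with sh1 and 3366 to 3514 with sh2.

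The promoters of 7 of these genes are shown because they hold the letters of an element that many interferon-stimulated genes share. Type I interferon drives transcription through the interferon-stimulated response element, to which that complex and the interferon regulatory factors bind. Its core was searched as GAAANNGAAA, on both strands and with overlapping matches allowed, in the 250 bases before each RefSeq start (GRCm38.p6). It was found for 936 of 27025 genes in the promoter table (3.46%), for 276 of the 8193 genes tested that have an entry (3.37%) and for 16 of the 36 listed interferon-stimulated genes with an entry (44.4%). A match of letters is a description and not a bound site. The 7 windows below end at the start site, run 5′ to 3′ on the gene's strand, and have each match in capitals, in the reverse form TTTCNNTTTC where it lies on the opposite strand. They were picked after the match was known.
Gbp2 (chr3:142620513-142620662, plus strand): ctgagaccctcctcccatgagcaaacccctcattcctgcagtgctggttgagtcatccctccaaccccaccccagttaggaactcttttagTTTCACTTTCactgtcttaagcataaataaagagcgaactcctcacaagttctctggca
Gbp3 (chr3:142559894-142560043, plus strand): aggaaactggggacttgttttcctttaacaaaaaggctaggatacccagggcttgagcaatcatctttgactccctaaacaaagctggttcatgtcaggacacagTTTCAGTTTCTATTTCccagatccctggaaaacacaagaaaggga
Ifit1 (chr19:34640739-34640888, plus strand): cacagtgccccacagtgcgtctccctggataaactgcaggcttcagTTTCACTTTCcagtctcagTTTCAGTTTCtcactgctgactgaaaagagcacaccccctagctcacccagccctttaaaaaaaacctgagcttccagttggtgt
Ifit3 (chr19:34583379-34583528, plus strand): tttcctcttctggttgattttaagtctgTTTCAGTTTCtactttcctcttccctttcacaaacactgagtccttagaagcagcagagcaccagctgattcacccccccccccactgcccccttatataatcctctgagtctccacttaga
Isg15 (chr4:156200819-156200968, minus strand): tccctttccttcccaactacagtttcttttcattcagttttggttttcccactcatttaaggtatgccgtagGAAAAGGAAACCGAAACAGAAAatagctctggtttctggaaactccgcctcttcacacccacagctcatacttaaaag
Oas1a (chr5:120907526-120907675, minus strand): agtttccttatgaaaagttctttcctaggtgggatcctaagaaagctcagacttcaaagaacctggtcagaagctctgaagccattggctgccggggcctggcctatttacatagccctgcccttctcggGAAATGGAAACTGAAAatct
Rsad2 (chr12:26456453-26456602, minus strand): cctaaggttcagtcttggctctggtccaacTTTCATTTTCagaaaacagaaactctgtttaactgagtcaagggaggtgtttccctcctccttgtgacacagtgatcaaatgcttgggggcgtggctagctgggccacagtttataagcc

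The guanylate-binding proteins, large GTPases that act on membranes of intracellular microbes, led the rise among protein-coding genes. Gbp2b (ENSMUSG00000040264, chromosome 3, 142594847 to 142619179, plus strand) was at 3.62, 2.47 and 3.48 FPKM with shLucif, 16.9, 16.9 and 17.4 with sh1 and 19.2, 19.2 and 22.4 with sh2 (log2 fold change 2.23, SE 0.109, adjusted p = 7.63e-08). Gbp3 was at 9.63, 9.31 and 10.3 FPKM with shLucif, 41.3, 44.6 and 46.6 with sh1 and 51.6, 51.1 and 54.4 with sh2 (2.19, SE 0.0814, adjusted p = 1.47e-08). Every hairpin library was above every control library for both genes, as the rule for the 12 named rises requires. Gbp2, whose window is shown above with 1 match, rose from 5.34 ± 0.585 to 24.3 ± 2.35 with sh1 and 28.9 ± 1.46 with sh2 (SD, n = 3 each; 2.12). Members of this family share sequence, as do the Ifit, Oas and H2 families, so the split of reads among their genes is uncertain.

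Antiviral effectors and a gene that restrains the response rose as well. Usp18, a protease that removes ISG15 from proteins and dampens the interferon receptor, was at 26.8, 27.3 and 28.0 FPKM with shLucif, 95.8, 104 and 105 with sh1 and 116, 104 and 114 with sh2 (1.92, adjusted p = 6.18e-08). Zbp1, a sensor of left-handed double-stranded nucleic acid, rose from 5.80 ± 0.236 to 23.3 ± 3.26 and 28.3 ± 2.08 (1.97). Lgals3bp, a secreted galectin-binding glycoprotein, rose from 26.4 ± 1.39 to 111 ± 4.64 and 110.1 ± 5.90 (2.02). Outside the list but among the 12 protein-coding genes with the largest rise, Gbp2b, Ifi27l2a, Ifi44l and Slfn2 are also known to respond to interferon. Ifi27l2a rose from 13.7 ± 0.526 to 61.4 ± 5.91 and 65.7 ± 5.41 FPKM (2.13), and Slfn2, of the Schlafen family, from 3.42 ± 0.444 to 15.1 ± 0.740 and 19.3 ± 1.80 (2.03). Ifi44l went from 1.37, 1.96 and 1.92 FPKM with shLucif to 8.59, 10.8 and 9.21 with sh1 and 10.7, 11.1 and 13.0 with sh2, a rise of 2.07.

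The remaining members named here were chosen after their values were seen. Isg15, the ubiquitin-like modifier, stood at 116, 116 and 111 FPKM in the controls, at 376, 414 and 385 with sh1 and at 430.3, 390.2 and 414 with sh2 (1.80, SE 0.0702, adjusted p = 1.84e-08). The genes of the signalling chain rose as well. Irf7, the factor that amplifies interferon production, rose by 1.90, Stat2 by 1.59 and Irf9 by 0.38. The RNA sensors Ifih1, which encodes MDA5, and Ddx58, which encodes RIG-I, rose by 1.56 and 1.08. Irf1, a factor that responds most to type II interferon, had a fold change of 0.02 (adjusted p = 0.938) and Ifitm1 one of -0.02 (adjusted p = 0.938).

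Ifi27 was the exception. Its level was 66.2, 62.8 and 63.6 FPKM with shLucif, 24.0, 22.1 and 22 with sh1 and 22.9, 22.7 and 20.3 with sh2, a fall of 1.48 on the log2 scale (SE 0.0565, adjusted p = 1.63e-08). All 6 hairpin libraries were below the control libraries, as the rule for the 12 named falls requires. Ifi27 and Ifi27l2a, which moved in opposite directions, are related genes.

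**Figure D4:**
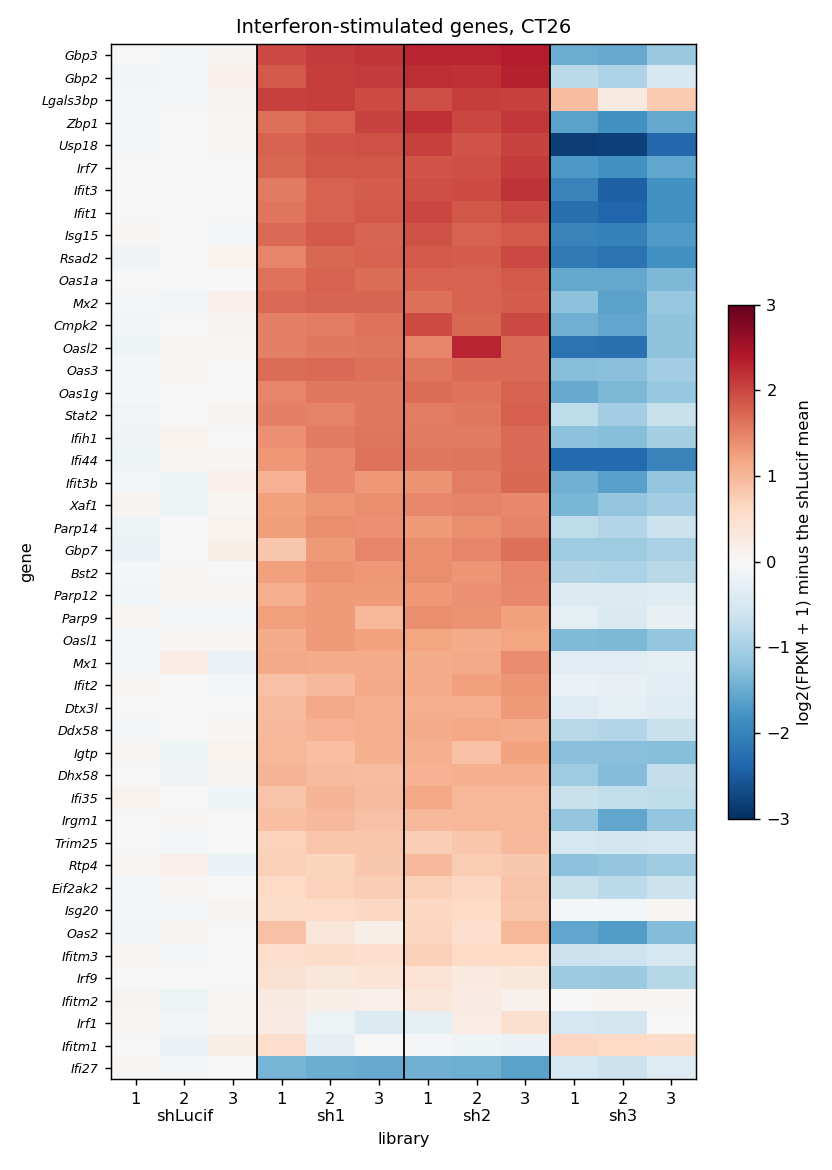
log2(FPKM + 1) minus the shLucif mean (colour) for 46 of the 47 interferon-stimulated genes (rows, ordered by fold change) in the 12 CT26 libraries (columns, grouped by hairpin; numbers only name libraries). The 6 sh1 and sh2 libraries are above the control mean for nearly the whole list, Ifi27 is below it, and the 3 sh3 libraries are below it for most genes.

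The hairpin sh3, which left less Soat1, gave the opposite direction for most of this list. The mean of sh1 and sh2 was higher than sh3 in 24.7% and lower in 35.5% of all genes, and in 44 and 2 of the 47 interferon-stimulated genes. Of the genes called in this comparison 41.0% were higher than with sh3, and 51.9% were after the trend with exonic length was removed. For 41 of the 47 genes the rise with sh1 and sh2, the fall with sh3 and the difference between them were each called, against 3.89% of all genes. The reverse pattern, lower with sh1 and sh2 and higher with sh3, held for 5.06% of all genes. Usp18 stood at 2.98, 3.09 and 4.53 FPKM in the sh3 libraries against 102 with sh1 and 27.4 with shLucif (difference of the mean of sh1 and sh2 from sh3 4.58, adjusted p = 3.72e-11). Isg15 stood at 27.7, 27.1 and 34.7 FPKM with sh3 (difference 3.71), so shLucif lay between the hairpins. The 3 hairpin comparisons share the shLucif libraries, and the difference from sh3 does not use them. The cause of the opposite directions was not tested.

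The interferon genes themselves were low. Of 21 type I, II and III interferon genes in the table, picked out after values were seen, 19 stayed under 1 FPKM in all 9 libraries. Ifnb1, which encodes interferon beta, was at 0.216, 0.408 and 0.442 FPKM with shLucif, 1.26, 1.36 and 1.32 with sh1 and 1.72, 1.34 and 2.19 with sh2. With sh3 it was at 0, 0.0129 and 0.249 FPKM. It reached 1 FPKM only in the sh1 and sh2 libraries, so these levels are a description with no test. Ifna4 was the other gene over 1 FPKM in any library, at 0.263, 0.384 and 0.359 with shLucif, 0.381, 1.03 and 0.588 with sh1 and 1.21, 0.423 and 0.496 with sh2, with groups that overlapped, and it was too low to be tested.

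Genes of MHC class I antigen presentation, which load peptides from inside the cell for display to cytotoxic T cells, rose in most cases. Of 23 genes 21 were measured, and 16 were called higher and 2 lower (median 0.51). Tapbp, the tapasin gene that bridges the peptide transporter and the class I molecule, was at 12.9, 13.9 and 12.0 FPKM with shLucif, 37.5, 36.9 and 40.3 with sh1 and 35.4, 38.5 and 39.0 with sh2 (1.48, adjusted p = 1.59e-08). The transporter gene Tap1 rose from 6.26 ± 0.898 to 15.6 ± 0.713 and 15.5 ± 0.879 FPKM (1.19). The heavy chain genes H2-D1 and H2-T22 rose by 1.01 and 1.06. B2m, the light chain of every class I molecule, was at 698, 677 and 690.3 FPKM in the controls, at 1104, 1127 and 1159 with sh1 and at 1319, 1185 and 1222 with sh2 (0.78, SE 0.0362, adjusted p = 5.77e-08). Groups did not overlap for any of these 5 genes.

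With sh3 this list moved less uniformly. Against shLucif, 7 of the 21 genes were called higher with sh3 and 2 lower, beside 3656 and 2561 of all 11832 genes. B2m was 669 ± 20.4 FPKM with sh3 (SD, n = 3; difference of the mean of sh1 and sh2 from sh3 0.82). Tap1 was 3.81 ± 0.511 FPKM (difference 1.79), below its shLucif level, while H2-D1 was 155 ± 5.91 FPKM (difference 0.66), above it. The mean of sh1 and sh2 was called above sh3 for 16 of the 21 genes and below it for 1. The 2 genes called lower with sh1 and sh2, named after their values were seen, were the chaperone Canx (-0.23) and the proteasome activator Psme1 (-0.11).

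Among ligands of immune checkpoints 12 of 21 were measured, 6 rose and 2 fell (median 0.21). Cd274, which encodes PD-L1, was at 2.55, 2.34 and 2.56 FPKM with shLucif, 5.89, 7.55 and 7.93 with sh1 and 8.26, 8.05 and 9.55 with sh2 (1.34, SE 0.0882, adjusted p = 6.26e-07). Every hairpin library held more than 2-fold the control mean. With sh3 it was 1.36 ± 0.195 FPKM (difference 1.90, adjusted p = 1.86e-08). Lgals9, the galectin ligand of TIM-3, rose from 33.8 ± 0.628 to 57.9 ± 0.650 and 63.4 ± 2.72 (0.82), and Ceacam1 from 2.06 ± 0.0725 to 4.11 ± 0.570 and 3.69 ± 0.203 (0.68). Hmgb1, a chromatin protein that also acts outside cells, fell from 52.3 ± 4.74 to 33.9 ± 0.842 and 33.6 ± 4.39 (-0.62).

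Of 39 cytokine genes 17 were measured, and the shares called, 5 higher and 3 lower (29.4% and 17.6%), lay near those of all genes (21.5% and 22.2%; median 0.15). Single members had large changes. Cxcl10, a chemokine for activated T cells that interferons induce, was at 18.6, 20.5 and 20.7 FPKM with shLucif, 65.3, 70.4 and 75.1 with sh1 and 76.9, 69.6 and 73.3 with sh2 (1.80, adjusted p = 3.65e-07). Il33, an alarmin of the interleukin 1 family, rose from 2.67 ± 0.0559 to 7.71 ± 0.840 and 8.78 ± 0.324 FPKM (1.33). Il11, a cytokine of the interleukin 6 family, was at 17.2, 18.5 and 19.2 FPKM with shLucif, 5.07, 5.53 and 6.06 with sh1 and 5.79, 4.56 and 6.73 with sh2 (-1.55, adjusted p = 4.42e-06). Il11 was also lower with sh3, at 8.04 ± 2.14 FPKM. Ccl20, a chemokine for cells with CCR6, was at 1.58, 0.939 and 1.92 FPKM with shLucif, 0, 0.0703 and 0.0747 with sh1 and 0.167, 0.143 and 0 with sh2 (-1.19). Its fold change depends on the pseudocount and was -3.22 with a pseudocount of 0.1. With sh3, Ccl20 was at 2.14 ± 1.06 FPKM, not below the control.

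In sterol metabolism, the rest of the genes around SOAT1 changed by less than the enzyme itself. Among 15 measured genes of esterification and lipid droplets, 4 rose and 5 fell, Soat1 and Soat2 included (median -0.02). These shares were 26.7% and 33.3%, against 21.5% and 22.2% of all genes. The hydrolases that release cholesterol from its esters were higher. Nceh1, the neutral hydrolase, rose from 7.65 ± 0.250 to 9.15 ± 0.138 and 9.52 ± 0.193 FPKM (0.26), and Lipa, the lysosomal one, from 1.68 ± 0.0528 to 2.35 ± 0.234 and 2.26 ± 0.122 (0.30). Hsd17b11, a droplet-bound dehydrogenase, rose by 0.39.

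In cholesterol biosynthesis 20 of 22 genes were measured, 10 rose and 4 fell (median 0.20), and the members did not move as a block. Sc5d, a late enzyme of the pathway, was at 5.62, 5.07 and 4.86 FPKM with shLucif, 7.99, 8.35 and 9.28 with sh1 and 11.2, 9.48 and 9.36 with sh2 (0.73, adjusted p = 6.37e-05). Dhcr7, the last enzyme of one branch, rose from 1.65 ± 0.396 to 2.57 ± 0.116 and 2.40 ± 0.254 (0.40). Idi1, which makes an isoprenoid building block early in the pathway, was at 4.97, 4.6 and 4.83 FPKM with shLucif, 3.54, 2.96 and 3.90 with sh1 and 3.98, 3.92 and 3.65 with sh2 (-0.32, adjusted p = 0.00698). With sh3 Idi1 was 10.2 ± 1.25 FPKM, above shLucif (difference of the mean of sh1 and sh2 from sh3 -1.26, adjusted p = 2.09e-07). In 12 of the 20 genes the mean of sh1 and sh2 was called below sh3, and in 4 above it.

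Genes of sterol uptake and trafficking showed 8 rises and 2 falls among 19 measured (median 0.07). The strongest members carry cholesterol out of the lysosome. Npc1 was at 5.76, 6.08 and 5.63 FPKM with shLucif, 10.8, 8.17 and 10.7 with sh1 and 9.67, 9.48 and 10.6 with sh2 (0.67, adjusted p = 4.94e-05), and Npc2 rose from 38.4 ± 0.972 to 58.8 ± 2.46 and 62.3 ± 2.5 (0.64). Insig1, which retains the SREBP complex in the endoplasmic reticulum, rose by 0.50, and Mbtps2, a protease that releases active SREBP, by 0.53.

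Abca1, the cholesterol exporter of the cell surface and an LXR target, was at 3.37, 3.74 and 3.82 FPKM with shLucif, 6.69, 5.64 and 6.13 with sh1 and 5.83, 5.53 and 5.87 with sh2 (0.58, SE 0.0590, adjusted p = 1.66e-05). All 6 hairpin libraries were above the controls, and with sh3 it was 6.90 ± 0.499 FPKM. It was the 1 of 8 measured LXR targets that rose, while 3 fell. Lpcat3, which remodels phospholipids, was one of the 3 (-0.36). Among 19 genes of fatty acid synthesis 5 rose and 6 fell (26.3% and 31.6%, median -0.03), near the shares of all genes (21.5% and 22.2%). Lpin1, a phosphatidate phosphatase, fell from 2.81 ± 0.220 to 1.66 ± 0.186 and 1.69 ± 0.0879 FPKM (-0.51), and Gpam, the first step of glycerolipid synthesis, by 0.53. Scd2, a stearoyl-CoA desaturase, was at 33.1, 84.9 and 35 FPKM with shLucif, 33.4, 28.4 and 20.4 with sh1 and 19.6, 22.8 and 19.5 with sh2, so its call (-0.95) rests in part on 1 high library. The fold change was -0.51 without shLucif replicate 2.

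For the oxysterol side of the study, 9 of 20 enzymes of oxysterol and steroid metabolism were measured, 4 rose and 2 fell. Akr1c18, an aldo-keto reductase known for the reduction of progesterone, was at 11.1, 11.9 and 13.0 FPKM with shLucif, 51.2, 38.0 and 43.8 with sh1 and 44.9, 43.1 and 41.8 with sh2 (1.78, SE 0.10, adjusted p = 2.05e-07). Fdxr, which feeds electrons to mitochondrial cytochrome P450 enzymes, rose from 4.80 ± 0.101 to 7.20 ± 0.340 and 6.60 ± 0.381 (0.44), while Akr1b7 fell by 0.69. Cyp11a1, the enzyme that cleaves the side chain of cholesterol, did not exceed 0.0750 FPKM in the 9 libraries and was not tested. Gpr132, the receptor named in the title, was also under the limit, at 0.141, 0.226 and 0.113 FPKM with shLucif, 0.0992, 0.0552 and 0.0392 with sh1 and 0.149, 0.0376 and 0.0858 with sh2.

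Of 13 measured oxysterol receptors and binding proteins 7 rose and 0 fell by limma, with 0 lower at an unadjusted p under 0.05. Smo, the Hedgehog transducer that binds oxysterols, rose from 29.8 ± 0.633 to 42.6 ± 1.40 and 41.5 ± 3.49 FPKM (0.48). The lipid transfer genes Osbpl8 and Osbpl6 rose by 0.46 and 0.40. Among stem cell markers, 10 of 25 were measured, 5 rose and 2 fell. Cd44, the hyaluronan receptor, was at 45.4, 50.1 and 47.7 FPKM with shLucif, 71.5, 70.3 and 69.0 with sh1 and 63.5, 60.8 and 61.7 with sh2 (0.46, adjusted p = 4.17e-06). Klf4 rose by 0.38 and Ly6a, the Sca-1 gene, by 0.58. Aldh1a1, a retinaldehyde dehydrogenase, fell from 1.65 ± 0.357 to 0.328 ± 0.0598 and 0.268 ± 0.0867 FPKM (-1.02, and -2.14 with a pseudocount of 0.1).

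Outside the interferon response, 3 of the 12 protein-coding genes with the largest rise have other known roles. F3, tissue factor, the trigger of coagulation, was at 9.94, 7.74 and 8.26 FPKM with shLucif, 36.2, 40.0 and 37.8 with sh1 and 40.9, 39.2 and 41.8 with sh2 (2.07, SE 0.0781, adjusted p = 1.59e-08). With sh3 it was 7.99 ± 0.955 FPKM, and the difference from shLucif was not called (-0.10, adjusted p = 0.376). Qdpr, which recycles tetrahydrobiopterin, was at 12.9, 18.0 and 17.1 FPKM with shLucif, 70.0, 76.0 and 46.7 with sh1 and 80.2, 74.2 and 73.6 with sh2 (2.06, SE 0.201), so the sh1 column ending in 3 stands below the other hairpin libraries and above the controls. Bpifc, of the lipid-binding BPI family, rose from 2.70 ± 0.276 to 13.7 ± 1.57 and 12.3 ± 1.43 FPKM (1.92). Hbb-bh1, an embryonic globin gene that is not one of the 12 and the 1 erythroid marker of 12 that was measured, had 0.663 ± 0.0469 FPKM in the shLucif cells against 4.88 ± 0.467 (sh1), 4.80 ± 0.789 (sh2) and 9.48 ± 1.2 (sh3). It reached 1 FPKM in no shLucif library, so no test is given.

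The largest fall among called protein-coding genes was that of Aqp8 (ENSMUSG00000030762, chromosome 7, 123462291 to 123468004, plus strand), a water and peroxide channel of the intestinal epithelium. Its levels were 15.1, 13.2 and 15.2 FPKM with shLucif, 2.02, 1.46 and 1.65 with sh1 and 1.75, 1.81 and 1.75 with sh2 (-2.5, SE 0.0845, adjusted p = 6.99e-09). With sh3 it was 8.13 ± 1.14 FPKM, also below the control but above sh1 and sh2 (difference -1.73, adjusted p = 2.86e-08). Fgf21, a stress hormone, was at 7.32, 6.81 and 8.07 FPKM with shLucif, 1.18, 0.620 and 0.962 with sh1 and 0.936, 0.803 and 1.34 with sh2 (-2.10, SE 0.126), and with sh3 at 0.562 ± 0.268. Ogn and Omd, small leucine-rich matrix proteoglycans, fell from 32.3 ± 1.33 to 7.36 ± 1.13 and 8.97 ± 0.268 FPKM (-1.87) and from 4.58 ± 0.331 to 1.21 ± 0.530 and 1.17 ± 0.241 (-1.37). Both were low with sh3 as well, at 2.0 ± 0.220 and 1.38 ± 0.147 FPKM.

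Several other falls were deeper with sh1 and sh2 than with sh3. Gtf2h1, a subunit of the general transcription factor TFIIH, was at 43.2, 59.1 and 56.2 FPKM with shLucif, 16.5, 17.9 and 18.2 with sh1 and 19.0, 16.9 and 20.0 with sh2 (-1.49, SE 0.0919, adjusted p = 3.96e-07). With sh3 it was 44.8 ± 3.03 FPKM (difference -1.26, adjusted p = 5.97e-07). C1s1, a complement protease gene, fell from 5.21 ± 2.17 to 1.41 ± 0.364 and 1.1 ± 0.111 and was 4.26 ± 0.385 with sh3 (difference -1.23). Zbtb18, a transcriptional repressor, fell from 10.9 ± 0.162 to 3.36 ± 1.09 and 4.13 ± 0.0102 and was 7.46 ± 1.01 with sh3 (difference -0.85). Cd53, a tetraspanin, fell from 4.09 ± 0.382 to 0.807 ± 0.205 and 0.986 ± 0.321 FPKM (-1.43), and Fam107b from 50.7 ± 1.54 to 12.7 ± 4.23 and 11.3 ± 3.60 (-2.04). With sh3 they were at 0.744 ± 0.186 and 17.2 ± 16 FPKM, and the difference from sh3 was not called (adjusted p = 0.399 and 0.708). Rpia, which makes ribose 5-phosphate, fell from 8.20 ± 0.315 to 2.63 ± 0.0361 and 2.85 ± 0.115 FPKM (-1.30), and was 4.86 ± 0.194 with sh3.

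Genes of DNA replication were mostly lower. Of 32 listed and measured genes 19 fell and 1 rose, against 22.2% and 21.5% of all genes (median -0.14). Ccne1, cyclin E1, fell from 22 ± 0.974 to 13.8 ± 0.295 and 14.2 ± 0.190 FPKM (-0.62), and Pola1, the catalytic subunit of the priming polymerase, from 12.3 ± 0.286 to 7.27 ± 0.256 and 7.27 ± 0.553 (-0.68). Pcna, the sliding clamp, was at 139.6, 136 and 139 FPKM with shLucif, 104, 96.1 and 98.5 with sh1 and 103, 96.8 and 100.2 with sh2 (-0.47, adjusted p = 1.06e-06). With sh3 Ccne1 was 29.0 ± 1.33 FPKM, above the control (difference -1.0, the most negative of the list). Of the 32 replication genes 11 were called higher and 11 lower with sh3 against shLucif. With sh1 and sh2, 6 of 27 mitosis genes fell (22.2%, the share of all genes that fell) and 2 rose (median -0.05). Mki67 (-0.37) and Kif4 (-0.29) were among those that fell. Among p53 targets 10 of 21 fell and 4 rose (47.6% and 19.0%, median -0.19). Ccng1 fell from 71.3 ± 0.714 to 42.0 ± 5.45 and 46.2 ± 0.903 FPKM (-0.69) and Zmat3 by 0.69, while Rrm2b (0.62) and the death receptor gene Tnfrsf10b (0.40) rose.

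Lysosomal genes were higher, with 21 rises and 4 falls among 31 measured of 33 (median 0.20). Psap, the precursor of the saposins that help to degrade sphingolipids, was at 139, 139.8 and 143 FPKM with shLucif, 253, 255 and 245 with sh1 and 236, 237 and 243 with sh2 (0.80, SE 0.0250, adjusted p = 4.95e-09). Gla, alpha-galactosidase A, rose from 6.32 ± 0.244 to 12.3 ± 0.308 and 12.7 ± 0.732 (0.88), and Gaa, acid alpha-glucosidase, from 12.8 ± 0.252 to 22.6 ± 1.58 and 20.2 ± 0.988 (0.69). With sh3 Gla was 4.84 ± 0.119 FPKM, below the control (difference 1.21), and Gaa 24.1 ± 1.15, above it. Lipa, Npc1 and Npc2, named with the sterol genes, act in the same organelle. Some genes are on more than 1 list (892 entries for 846 genes), so the counts of different lists are not independent.

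Respiratory chain genes were called lower more often than higher. Of the 13 mRNAs encoded by the mitochondrial genome 8 fell and 0 rose by limma, with 0 higher at an unadjusted p under 0.05 (median -0.16), and of 35 nuclear genes 13 fell and 2 rose (median -0.12). mt-Atp8 was at 4079, 4160.0 and 4231 FPKM with shLucif, 2579, 2790.3 and 3277 with sh1 and 3274, 3139 and 3084 with sh2 (-0.46). These are among the most abundant transcripts, and after quantile normalization the fold change of mt-Atp8 was -0.15, that of mt-Atp6 was -0.08 in place of -0.44, and mt-Cytb lost its call (-0.03 in place of -0.35, adjusted p = 0.403). Their summed level was 36842 to 38098 FPKM with shLucif, 28308 to 33993 with sh1 and 32255 to 34490 with sh2. Cox6a2, the muscle form of a cytochrome oxidase subunit, fell from 21.9 ± 1.79 to 9.70 ± 2.16 and 9.46 ± 0.526 FPKM (-1.12). Glycolysis and hypoxia genes showed 9 falls and 5 rises among 27 (median -0.13), with Aldoa lower (-0.61) and Ndrg1 higher (0.43).

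Stress response lists held calls in both directions, in shares that differed between the lists (all genes 21.5% higher and 22.2% lower). ER chaperones rose in 12 of 23 cases and fell in 2 (52.2% and 8.70%, median 0.16). Hyou1 rose from 14.1 ± 0.462 to 19.9 ± 0.683 and 19.1 ± 0.524 FPKM (0.45) and Hspa13 by 0.53, while Herpud1, a component of ER-associated degradation, fell from 46.0 ± 2.70 to 26.4 ± 1.30 and 25.7 ± 3.07 (-0.80). ATF4 targets rose in 11 and fell in 6 of 25 (44% and 24%, median 0.11). Chac1, which degrades glutathione, rose from 46.3 ± 1.38 to 75.5 ± 2.21 and 77.3 ± 2.35 (0.71), whereas Fgf21, on the same list, had one of the largest falls and Ddit4 fell by 0.53. NRF2 targets rose in 8 and fell in 6 of 24 (33.3% and 25%, median 0.07). Tkt was higher (0.65), and Gstm1 (-0.72) and Ephx1 (-0.63) were lower. Of 17 measured genes on the list of cytosolic heat shock proteins 2 rose (11.8%) and 1 fell (5.88%), both below the shares of all genes. Cryab, a small heat shock protein, was at 11.3, 12.3 and 11 FPKM with shLucif, 37.1, 39.4 and 32.6 with sh1 and 34.0, 32.1 and 32.3 with sh2 (1.5, SE 0.0549), and 45.3 ± 0.812 with sh3. The 1 listed gene that fell was Hspd1 (-0.47), which encodes the mitochondrial chaperonin and not a cytosolic protein.

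In signalling lists, 10 of 21 Id, Smad and TGF-beta or BMP feedback genes rose and 3 fell (median 0.17). Cd109, a co-receptor that restrains TGF-beta, was at 5.13, 5.24 and 5.25 FPKM with shLucif, 15.8, 15.3 and 16.8 with sh1 and 16.1, 16.9 and 15.5 with sh2 (1.46, SE 0.0412, adjusted p = 3.91e-09). Bmp2 rose from 2.77 ± 0.170 to 6.76 ± 0.599 and 7.01 ± 0.395 (1.06). Id2 rose by 0.67 here and was higher with sh3, at 18.5 ± 1.55 FPKM (difference -1.45). Of 8 measured Wnt targets 4 rose and 3 fell (50% and 37.5%). Among them were the antagonist gene Dkk2 (1.44), Lef1 (0.53, and 0.83 with a pseudocount of 0.1) and Ccnd1 (-0.37). NF-kB targets rose in 6 and fell in 3 of 19 (31.6% and 15.8%, against 21.5% and 22.2% of all genes, median 0.03). Nfkb2 was lower (-0.52) and Ikbke higher (0.42, and 0.69 with a pseudocount of 0.1). Immediate early genes rose in 9 and fell in 3 of 25 (median 0.05), with Fosb higher (0.58) and Ier3 lower (-0.58).

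Matrix and mesenchymal genes were divided, with 19 rises and 12 falls among 38 (50% and 31.6%, median 0.10). Thbs2, thrombospondin 2, rose from 35 ± 0.903 to 60.4 ± 4.78 and 57.3 ± 3.09 FPKM (0.73) and Col4a2, a basement membrane collagen, from 20.8 ± 0.778 to 36.5 ± 1.21 and 33.3 ± 1.03 (0.72). Mmp3, stromelysin 1, had 1.24 ± 0.156 FPKM in the shLucif cells against 0.144 ± 0.147 (sh1) and 0.242 ± 0.164 (sh2), and reached 1 FPKM only with shLucif. Machinery of RNA interference, which processes the hairpins themselves, was called higher in 3 and lower in 4 of 12 measured genes. These shares were 25% and 33.3%, against 21.5% and 22.2% of all genes. Ago1 rose from 1.84 ± 0.172 to 3.96 ± 0.196 and 3.80 ± 0.206 FPKM (0.78) and Dicer1 by 0.33, whereas Ago2, the slicing Argonaute, fell from 13.0 ± 0.140 to 9.66 ± 0.271 and 9.62 ± 0.612 (-0.40) and Drosha by 0.29. With sh3 Ago2 was 12.2 ± 0.298 FPKM and Drosha 18.2 ± 0.680.

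Marker genes were read to check the label and to look for other cells. Of 20 epithelial genes 3 were measured and of 18 intestinal markers 5, so most defining epithelial genes of a colon tumour were under 1 FPKM, and 2 and 4 of them were at 0 in all 9 libraries. Of the 5 intestinal markers 3 were called higher and 2 lower (60% and 40%, against 21.5% and 22.2% of all genes). The rises include Cdx2 and Cdh17, which passed the filter only through groups other than shLucif, so the count is a description. Aqp8, described among the falls, changed most. Krt18, a simple keratin, fell from 2.32 ± 0.110 to 1.86 ± 0.148 and 1.30 ± 0.245 FPKM (-0.38). Krt20 was called higher (0.25), but the call was lost in 6 of 18 alternatives, without any 1 of the shLucif libraries among them. Cdx2, the intestinal transcription factor, was at 0.370, 0.447 and 0.163 FPKM with shLucif, 1.29, 0.799 and 1.07 with sh1 and 0.805, 0.721 and 1.03 with sh2, and Cdh17 at 0.438 ± 0.0118, 0.616 ± 0.0705 and 0.729 ± 0.0163. Both passed the filter through other groups than shLucif, so no test is given for them. Of 18 leukocyte markers 2 were measured, with 5 at 0 in the 9 libraries. Cd14 rose from 16.5 ± 0.148 to 24.2 ± 1.43 and 26.4 ± 1.71 FPKM (0.58). Their summed level was 22.9 to 23.3 FPKM with shLucif, 29.9 to 33.0 with sh1 and 31.8 to 34.6 with sh2. Of 12 fibroblast markers 6 were measured and 5 rose and 1 fell, with sums of 193 to 194 FPKM with shLucif, 211 to 215 with sh1 and 202 to 214 with sh2. Pdgfra rose from 1.15 ± 0.0877 to 3.30 ± 0.147 and 3.01 ± 0.137 (0.95). For endothelium 1 of 11 markers was measured, and for hepatocytes 1 of 15, Afp (0.34). The part of other cells in the results was not tested.

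**Figure D5:**
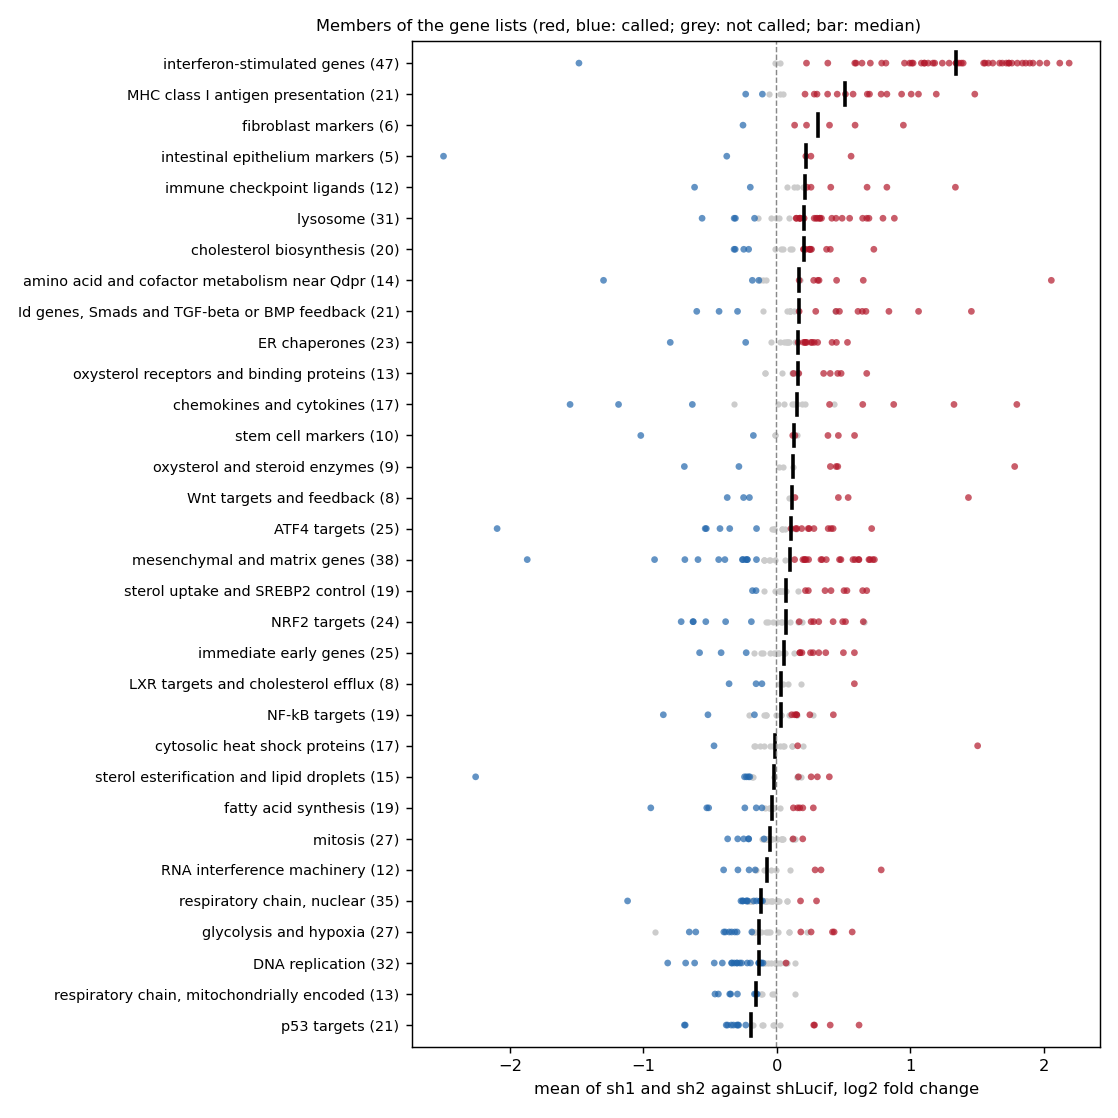
Log2 fold change of the mean of sh1 and sh2 against shLucif (x axis) for the measured members of each list with at least 5 of them (rows, number measured in brackets); red and blue points are called higher and lower, grey points not called, black bars the median, and the dashed line the median of all genes. The interferon-stimulated list has its median at 1.34 and the MHC class I list at 0.51, and the other medians lie between -0.19 and 0.31.

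Between sh1 and sh2, finally, 2 genes were called. Chchd3, a subunit of the MICOS complex of mitochondrial cristae, was at 44.8, 46.2 and 45.1 FPKM with shLucif, 38.4, 39.4 and 34.9 with sh1 and 29.4, 29.3 and 28.0 with sh2 (sh1 against sh2 0.36, SE 0.0450, limma adjusted p = 0.0377). It fell with both hairpins against shLucif (-0.27 and -0.63). The processed pseudogene Gm14165, outside the rule for named genes and listed since it is the other call, was at 67.1, 65.1 and 65.7, 48.3, 49.9 and 46.9 and 65.1, 62.5 and 60.1 FPKM (-0.36, adjusted p = 0.0377). It shares sequence with its parent gene, so its value is uncertain. Chchd3 was called in 7 of 18 alternative analyses and Gm14165 in 10 of 17. Over all genes the median absolute difference between sh1 and sh2 was 0.06 on the log2 scale. The largest, -5.56, belonged to Gm10260 and was not called (adjusted p = 0.562). Of the 47 interferon-stimulated genes 0 were called between sh1 and sh2 by limma and 8 were lower with sh1 at an unadjusted p under 0.05 (17.0%, against 3.73% of all genes). Their differences ran from -0.33 to 0.21, and 41 were lower in sh1 (87.2%, against 47.7% of all genes). This lean was not particular to that list. All 13 mitochondrially encoded respiratory chain mRNAs were lower in sh1, 5 of them (38.5%) at an unadjusted p under 0.05 by limma. Of the 17 listed heat shock genes 76.5% were lower in sh1, while of 8 measured LXR targets 12.5% were.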

How the data were processed

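RNA from CT26 cells was sequenced as paired ends after TRIzol extraction, per the labels' protocols. The deposited values are FPKM per gene, made by the authors; the submitters' processing notes name GRCm38, HISAT2, STAR, DESeq2 and edgeR, with versions and roles not given in the sources used here. Groups follow the column names. Columns of sh1 match their group but single out no sample, and 15 columns of the table were not used. Read totals are unknown.

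From the deposited FPKM, log2(FPKM + 1) of 12 CT26 libraries (shLucif, sh1, sh2 and sh3) was fitted with limma 3.58.1 in R 4.3.3, 1 mean per group, with a mean-variance trend, after a filter of at least 1 FPKM in at least 3 libraries. Tests were two-sided, with Benjamini-Hochberg adjustment over 11832 genes. The method was tested on simulated data with 200 changed genes among 11832. There the mean of sh1 and sh2 against shLucif found 35.8% of 1.2-fold, 77.6% of 1.5-fold and 93.9% of 2-fold changes, and 6.12% of calls were false. The real comparison called 5165 genes, so these rates may not hold for it. Alternatives changed the pseudocount, filter, scaling, model, length trend and libraries.

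Named genes were Soat1, Soat2, the 12 protein-coding genes with the largest rise and the 12 with the largest fall that were called with both hairpins and did not overlap the controls, genes called between sh1 and sh2, up to 4 called genes per list with the largest change, and Abca1, Gpr132, Cd274, B2m, Cd44 and Cyp11a1. A few genes that this rule names or that the lists hold are counted but not reported here. Other genes were chosen after their values were seen. Gene class, position and exonic length came from GENCODE M21 (GRCm38), which matched 99.7% of rows, and promoters from RefSeq (GRCm38.p6). Members and lists were chosen with earlier results of these data known.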

Additional observations from a re-analysis of the deposited data

Results flagged for a closer look

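Several genes moved one way with sh1 and sh2 and the other way with sh3, each against shLucif, with all 3 comparisons called by limma, the last being the mean of sh1 and sh2 against sh3. They are given as that difference on the log2 scale. Among genes that respond to interferon or take part in antigen display, it was 4.58 for Usp18, 3.62 for Zbp1, 3.61 for Ifi27l2a, 3.56 for Gbp3, 3.39 for Ifi44l, 3.31 for Slfn2, 2.85 for Gbp2, 2.80 for Gbp2b, 2.23 for Cxcl10, 1.90 for Cd274 and 1.79 for Tap1. Higher with sh1 and sh2 were also Bpifc (2.96), the alarmin gene Il33 (1.78), Ndrg1 (1.68), Gch1, the first enzyme of tetrahydrobiopterin synthesis (1.35), Gla (1.21), Pdpn, podoplanin (1.16), Thbs2 (1.07), Npc1 (1.01), Srd5a3 (0.85), Nceh1 (0.51) and Cd68 (0.47). The rise of Cd68 against shLucif lost its call in 10 of 18 alternatives, without any 1 of the shLucif libraries among them (adjusted p 0.0828 to 0.106).

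The opposite order, which 5.06% of all genes showed, was seen for the lipid synthesis genes Idi1 and Srebf1. It did not hold for that pathway as a set. Of 20 measured cholesterol biosynthesis genes, 10 were called higher than shLucif with sh1 and sh2, and 15 with sh3. Over all 11832 genes, 2538 were called higher with sh1 and sh2, and 3656 with sh3. The difference was -1.26 for Idi1 and -0.62 for Srebf1, which encodes SREBP1. The fall of Srebf1 against shLucif (-0.16) lost its call without shLucif replicate 1 (adjusted p = 0.0953) or replicate 2 (adjusted p = 0.0679). The opposite order was also seen for single genes of cell division. It was -1.0 for Ccne1, -0.84 for Kif20a, -0.65 for the checkpoint kinase gene Ttk, -0.56 for Mki67 and -0.49 for Ccnd1. Of 27 mitosis genes 6 were called lower with sh1 and sh2 (22.2%, the share of all genes), and 19 higher with sh3. Of 32 replication genes 19 were called lower with sh1 and sh2, while with sh3 11 were called higher and 11 lower. The remaining genes were Ccng1 (-0.91), Hmgb1 (-0.88), Nfkb2 (-0.66), Drosha (-0.63) and the collagen gene Col1a2 (-0.50). Between sh1 and sh2 the 2 called genes were Chchd3 (0.36) and Gm14165 (-0.36).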

How the results depend on the processing

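The direction of the 145 genes named for the mean of sh1 and sh2 against shLucif held in 2584 values under 18 alternatives, and 51 of those values, from 11 genes, lost the call. Of the genes called between sh1 and sh2, Chchd3 lost the call in 11 of 18 alternatives and Gm14165 in 7 of 17. At 2-fold or more the counts of called genes were 180 for the mean of sh1 and sh2, 180 for sh1, 196 for sh2, 0 for sh1 against sh2 and 401 for the mean against sh3. Between sh1 and sh2 the 2 calls became 6 without a filter on low values, 4 with 9 libraries in the model, and 0 with protein-coding genes only or without a mean-variance trend. When each library was left out in turn, the counts ran from 4338 to 5089 for the mean, from 3734 to 4463 for sh1, from 3797 to 4720 for sh2, from 0 to 32 for sh1 against sh2 and from 6855 to 7064 for the mean against sh3. The 32 calls arose without the sh1 column ending in 3, and the cause was not tested. With the replicate block, sh2 against shLucif gave 4456 calls in place of 4602. Deviations of shLucif and sh2 libraries of the same number correlated at 0.0951, 0.0300 and 0.00658, and those of different number at -0.112 to 0.0789. These values cannot settle whether libraries of the same number were prepared together. Columns of sh1 carry no number that singles out 1 sample and had no block. A median over a list changed sign in 7 of 33 lists, each time with a stricter filter, 9 libraries or a library left out. The deposited table gives no transcript length, so the planned correction with its own length was not run, and GENCODE exonic length was used in its place, a choice made after seeing the data. Read depth is not given, which leaves the precision of genes near 1 FPKM unknown.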
